A study of Homo sapiens with 4 samples.

Results

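The genes described here encode the ligands, receptors, SMAD proteins, inhibitors and direct targets of TGF-beta and bone morphogenetic protein (BMP) signaling in LN229 cells. Of 42 genes listed by name, 41 have a row in the deposited table of 27694 genes, and the expression of GREM1 was not analysed here. They were divided by known function into a TGF-beta arm of 22 genes, a BMP arm of 15 genes, of which 14 were in the table, and 5 genes that serve both arms. BAMBI, which blocks receptors of both arms, was counted in the BMP arm. LN229, an established cell line from a human glioblastoma, was grown in medium with fetal bovine serum, and the study used this line alone for RNA-seq. For 2 libraries the cells received DMSO alone as vehicle, and for 2 they received UM-164, an inhibitor of c-Src and p38 MAPK, at 100 nM, and RNA of all 4 was taken after 24 h. The comparison asks which transcripts differ after UM-164. Neither the labels nor the methods state that replicate libraries are separate cultures. The p-values therefore reflect the spread among these 4 libraries, and that spread may be technical.

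TGF-beta and BMP ligands are secreted dimers that bind pairs of type I and type II receptor kinases. In the TGF-beta and activin branch the receptors phosphorylate SMAD2 and SMAD3, in the BMP branch SMAD1 and SMAD5, and both kinds of SMAD enter the nucleus with SMAD4 to change transcription. TGF-beta is secreted in a latent form bound to LTBP proteins and is known in glioblastoma as a driver of invasion and of immune suppression, whereas BMPs are known to push glioma stem cells toward astrocytic differentiation.

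The deposited values are FPKM, that is fragments per kilobase of transcript relative to all mapped fragments, which permits levels of different genes to be compared per length. Depth is not given. Among single-transcript genes, the step that separates low values varied up to 1.10 times between libraries, but only 24.0% to 26.6% of low values lay within 0.05 steps of a whole step (10% by chance), so counts were not recovered. The replicates of a group differed by a median of 0.18 log2 units per gene in vehicle and 0.12 in UM-164 libraries, for the pathway genes as for all genes tested. Of 8 glial and neural stem cell markers, 7 reached a mean FPKM of 1, and the astrocyte marker GFAP did not, at 0.0487 to 0.120 FPKM. The summed FPKM of the 8 was 994 and 1128 in vehicle and 1073 and 1180 in UM-164 libraries. None of 4 endothelial and 4 myeloid markers reached that mean, and 1 of 3 neuronal markers in the table did. The summed FPKM of 4 fibroblast markers was 4.39 and 4.48 in vehicle and 3.16 and 3.56 in UM-164 libraries. Of these, COL1A1 and COL1A2 were lower in both UM-164 libraries, DCN was higher and PDGFRB overlapped. The sum of 4 epithelial markers, nearly all of it KRT14, was 8.0 and 9.61 FPKM in vehicle against 5.24 and 6.33. Rows with no protein-coding transcript took 9.94% and 10.3% of the summed FPKM in vehicle and 16.6% and 18.3% in UM-164 libraries. The part of these shifts in the results below was not tested beyond rescaling the libraries, which moved the median log2 fold change of all genes only from 0.01 to between -0.01 and 0.00.

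Most pathway genes differed little between the groups. Of the 41 genes, 32 reached a mean FPKM of 1 over the 4 libraries, so that limma tested them on log2(FPKM + 0.5). The other 9 are given by their FPKM. Among the 32, 28 had a log2 fold change under 0.5 in size (87.5%, against 87.4% of all 11516 genes tested). ID4 rose from 3.66 to 8.11 FPKM and was the only pathway gene past an adjusted p of 0.05 from limma (52 genes in all, 0.452% of those tested, rose, 99, or 0.86%, fell, and 1.31% passed in either direction). No pathway gene fell past that threshold. ID1, SMAD3 and FSTL3 had the largest negative fold changes and did not pass it (limma adjusted p = 0.0528, 0.0601 and 0.0773). Of the 32, 6 had an unadjusted p under 0.05 from limma (18.8%, against 20.1% of all genes tested). A count of 1 called gene is too small to read against the background. In bulk RNA, fewer cells of a type and less RNA per cell cannot be told apart.

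By arm, the TGF-beta genes gave 0 of 17 calls, the BMP genes 1 of 10 (10%) and the shared genes 0 of 5, against 1.31% of all genes tested. An unadjusted p under 0.05 from limma was seen for 3 TGF-beta genes (17.6%), of which 2 had lower and 1 higher values. It was seen for 3 BMP genes (30%), of which 1 had lower and 2 higher values, and for no shared gene, against 20.1% of all genes tested. These counts are small, and a difference between the arms was not tested. The median log2 fold change was -0.04 in the TGF-beta arm, 0.06 in the BMP arm and -0.09 in the shared genes, against 0.01 over all genes tested. Values in UM-164 libraries all exceeded those in vehicle for 10 of the 32 genes (31.3%, against 27.7% of all genes tested), and for 6 they all lay below (18.8%, against 25.5%). The first share is near the background and the second is under it, and neither was tested for the set. The plot of fold changes by arm shows this narrow spread around 0, with FSTL3, SMAD3 and ID1 to its left and ID4 to its right.

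**Figure D1:**
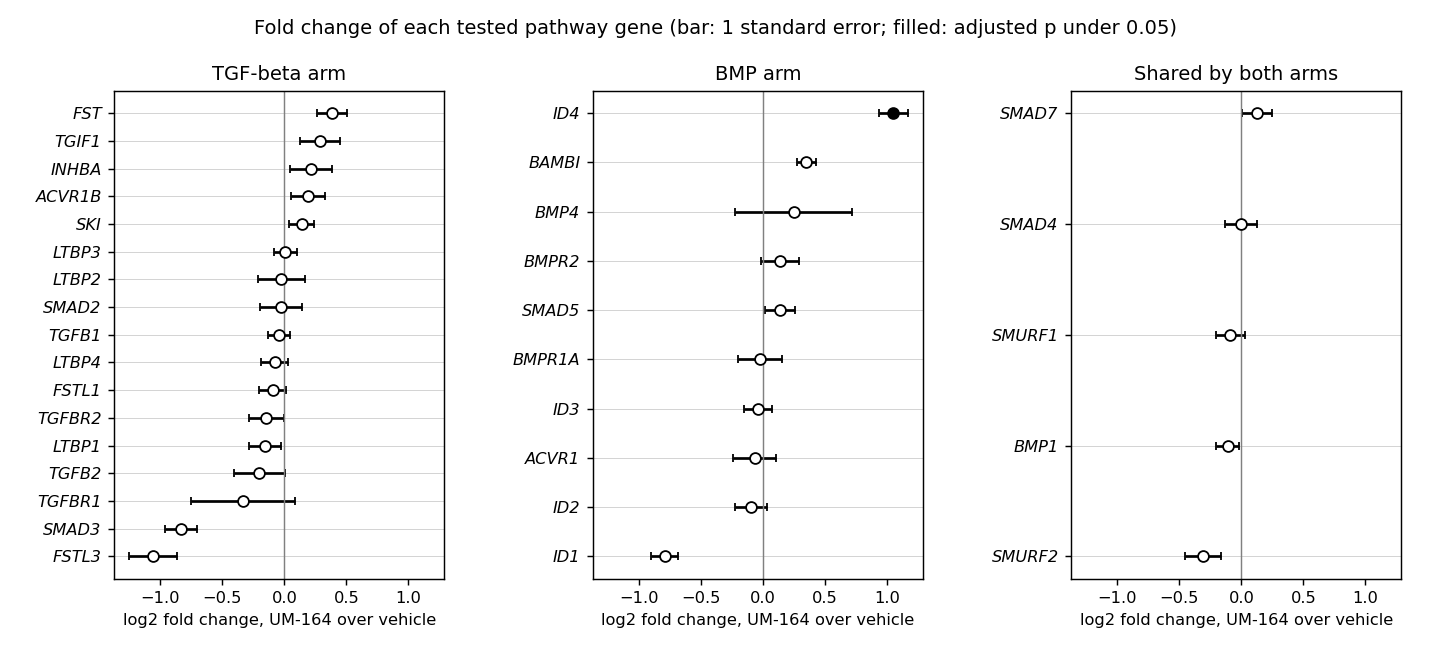
Log2 fold change of UM-164 over vehicle, on the log2(FPKM + 0.5) scale, for the 32 tested genes in 3 panels (TGF-beta arm, BMP arm, shared genes). Points are estimates from limma over 2 libraries per group, bars are 1 standard error, and the filled point marks an adjusted p under 0.05. ID4 at 1.05 is the only filled point, and FSTL3 at -1.06, SMAD3 at -0.83 and ID1 at -0.79 lie farthest to the left.

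The ID genes are classical direct targets of BMP-activated SMAD1 and SMAD5. Their products are helix-loop-helix proteins without a DNA-binding region, which hold E proteins and other differentiation factors away from DNA, and all 4 are known in neural progenitors. The 4 paralogs had fold changes of different sign and size after UM-164, and the differences between them were not tested. ID4 rose, ID1 values were lower without passing the threshold, and ID2 and ID3 overlapped between the groups.

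ID4 (chr6:19837386-19840684 on GRCh38, plus strand, GENCODE v29) was at 3.52 and 3.79 FPKM in vehicle and at 7.75 and 8.48 in UM-164 libraries, so that every treated library lay above every vehicle library. Its mean went from 3.66 ± 0.191 to 8.11 ± 0.519 FPKM (SD, n = 2 per group). This was 1.05 on the log2 scale, with a standard error of 0.12 and a limma adjusted p = 0.0347. ID4 has a single transcript in the table, and its values would correspond to 187 and 189 steps in vehicle and 373 and 422 steps in UM-164 libraries. The direction was kept when any library was left out, but the call was not. The adjusted p from limma was 0.119 and 0.121 without vehicle replicate 1 or 2, and 0.0762 and 0.129 without UM-164 replicate 1 or 2, where a lone library is taken to vary as the pair in the other group does. With no filter on low values it was 0.178, and with no variance trend 0.0609. Glial markers differed between the same libraries in both directions. FABP7 was at 29.2 and 29.5 FPKM in vehicle and 66.4 and 74.4 in UM-164 libraries, S100B at 328 and 305 against 536 and 559, and OLIG2 at 3.51 and 2.24 against 6.09 and 5.89. VIM was at 623 and 494 against 346 and 426 FPKM and NES at 119 and 133 against 93.7 and 91.2. The part of these markers in the ID4 result was not tested.

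ID1 (chr20:31605283-31606515, plus strand) was the most abundant of the 4 in vehicle, at 62.7 and 55.1 FPKM, and was at 35.7 and 31.97 in UM-164 libraries. The groups did not overlap, and the log2 fold change of -0.79 (SE 0.11, limma adjusted p = 0.0528) missed the threshold. Protein-coding genes rescaled to one sum gave ID1 an adjusted p = 0.0340 from limma, and over all alternatives it ran from 0.0340 to 0.195 at fold changes of -0.88 to -0.70. ID3 was at 48.8 and 42.3 FPKM in vehicle and 41.8 and 46.5 in UM-164 libraries, and its log2 fold change of -0.04 had a 95% interval from -0.33 to 0.24. ID2 was at 4.54 and 4.96 against 4.69 and 4.16 FPKM, at -0.09 with an interval from -0.42 to 0.23. An effect of 0.5 in size lay outside the intervals of both.

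The ratios of ID1 to ID4 and of ID1 to ID3 did not overlap between the groups. With ID1 values below and ID4 values above vehicle, the first of these follows from the single genes and adds no result. ID1 exceeded ID4 by 17.8 and 14.5 times in vehicle libraries and by 4.61 and 3.77 times in UM-164 libraries, a ratio within each library that does not depend on library scaling. ID1 exceeded ID3 by 1.28 and 1.30 times in vehicle and was below it, at 0.853 and 0.688 times, in UM-164 libraries. The summed FPKM of the 4 genes was 120 and 106 in vehicle and 89.9 and 91.1 in UM-164 libraries, of which ID1 held 52.4% and 51.9% against 39.7% and 35.1%, and ID4 held 2.95% and 3.57% against 8.61% and 9.31%. With 2 libraries against 2 the smallest two-sided exact permutation p is 0.33, and the ratios were not tested in another way.

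**Figure D2:**
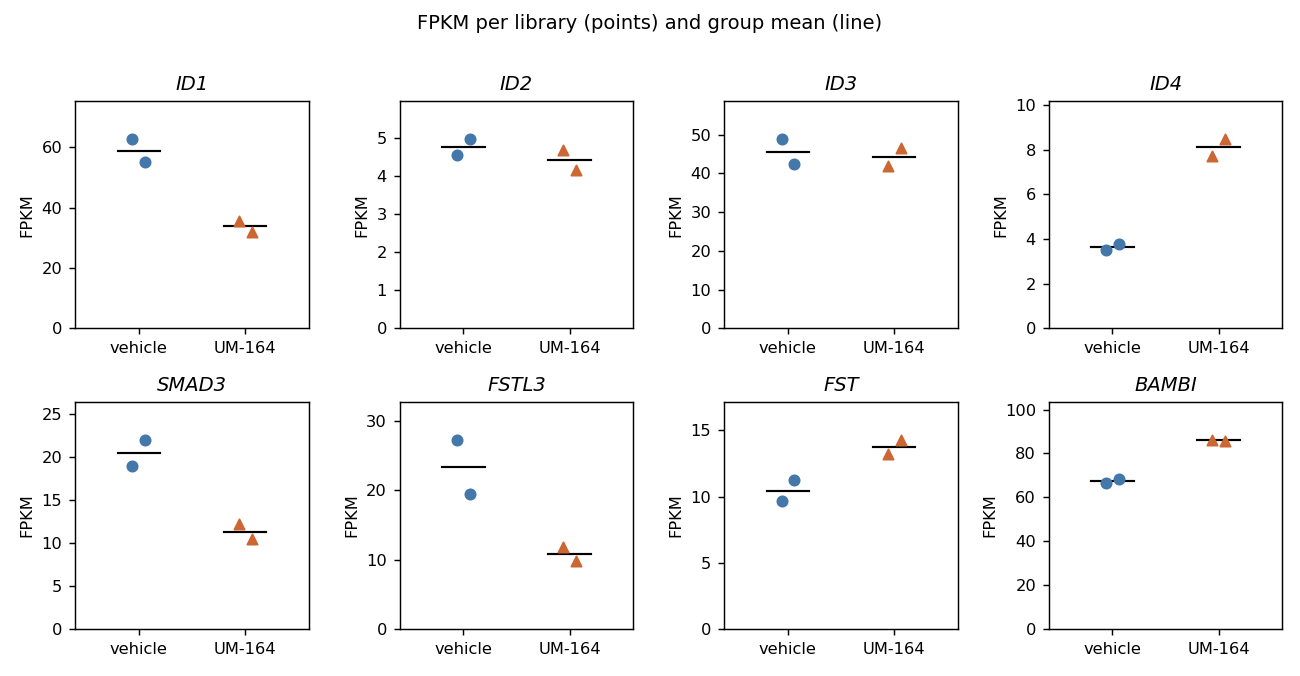
FPKM in each library for ID1, ID2, ID3, ID4, SMAD3, FSTL3, FST and BAMBI, with vehicle libraries as circles, UM-164 libraries as triangles and the group mean as a line, each panel on its own axis from 0. The groups do not overlap in ID1, ID4, SMAD3, FSTL3, FST and BAMBI, and they overlap in ID2 and ID3.

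The start regions of the 4 ID genes and of SMAD3 and FSTL3 are shown so that the paralogs can be compared and because ID4, ID1, SMAD3 and FSTL3 had the tested log2 fold changes over 0.5 in size. Each runs from 250 bases before the RefSeq start site through the first 30 transcribed bases (GRCh38.p14), 5′ to 3′ on the gene's strand. Capitals mark matches, on either strand, to CAGAC (a SMAD-binding sequence), GGCGCC (a GC-rich sequence bound by BMP SMADs), GGAATG (the TEAD motif) or TGANTCA (the AP-1 motif). RefSeq starts can differ from the GENCODE gene limits given above.
ID1 (chr20:31605039-31605318, plus strand): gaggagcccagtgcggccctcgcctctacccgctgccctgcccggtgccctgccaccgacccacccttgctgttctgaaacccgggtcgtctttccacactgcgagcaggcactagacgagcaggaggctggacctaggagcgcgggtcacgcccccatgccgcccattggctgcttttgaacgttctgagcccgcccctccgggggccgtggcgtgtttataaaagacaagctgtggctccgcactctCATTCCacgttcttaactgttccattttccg
ID4 (chr6:19837120-19837399, plus strand): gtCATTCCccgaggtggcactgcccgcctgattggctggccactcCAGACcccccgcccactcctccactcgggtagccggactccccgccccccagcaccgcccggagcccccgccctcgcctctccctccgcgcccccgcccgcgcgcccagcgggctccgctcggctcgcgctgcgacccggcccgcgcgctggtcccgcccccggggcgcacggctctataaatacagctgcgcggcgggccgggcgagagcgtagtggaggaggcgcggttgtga
ID3 (chr1:23559472-23559751, minus strand): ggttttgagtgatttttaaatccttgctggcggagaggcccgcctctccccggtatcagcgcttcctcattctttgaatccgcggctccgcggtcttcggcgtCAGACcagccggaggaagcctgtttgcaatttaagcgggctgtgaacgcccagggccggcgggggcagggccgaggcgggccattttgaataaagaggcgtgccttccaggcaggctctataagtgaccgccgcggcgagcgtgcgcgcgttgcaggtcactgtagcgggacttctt
ID2 (chr2:8681806-8682085, plus strand): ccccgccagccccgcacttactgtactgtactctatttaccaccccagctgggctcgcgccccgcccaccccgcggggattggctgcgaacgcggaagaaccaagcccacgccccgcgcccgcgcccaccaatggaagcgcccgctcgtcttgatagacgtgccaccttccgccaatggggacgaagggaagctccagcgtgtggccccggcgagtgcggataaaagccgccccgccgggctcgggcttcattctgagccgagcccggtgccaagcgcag
SMAD3 (chr15:67065352-67065631, plus strand): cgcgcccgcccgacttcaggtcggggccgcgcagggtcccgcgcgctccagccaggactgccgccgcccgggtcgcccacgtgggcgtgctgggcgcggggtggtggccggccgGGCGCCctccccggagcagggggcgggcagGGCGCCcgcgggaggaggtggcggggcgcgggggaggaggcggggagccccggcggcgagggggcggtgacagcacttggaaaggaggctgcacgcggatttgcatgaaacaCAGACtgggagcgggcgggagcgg
FSTL3 (chr19:676142-676421, plus strand): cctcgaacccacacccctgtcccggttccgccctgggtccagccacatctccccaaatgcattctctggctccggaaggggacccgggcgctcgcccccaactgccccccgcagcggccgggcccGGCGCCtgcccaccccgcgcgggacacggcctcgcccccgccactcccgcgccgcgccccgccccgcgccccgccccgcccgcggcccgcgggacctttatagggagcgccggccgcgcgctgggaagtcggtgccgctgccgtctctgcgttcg
The ID1 window holds 1 GGAATG, read on the opposite strand from position -1 relative to the start, and the ID4 window holds 1 CAGAC from position -205 and 1 GGAATG on the opposite strand from position -248. ID3 holds 1 CAGAC from position -147, and ID2 holds none of the 4 motifs. SMAD3 holds 2 GGCGCC and 1 CAGAC, and FSTL3 holds 1 GGCGCC. Over 35116 windows of the same length, 42.7% hold CAGAC, 18.0% hold GGCGCC, 13.3% hold GGAATG and 7.35% hold TGANTCA, and among the 38 listed genes with a window, GREM1 included, the numbers were 19, 14, 6 and 2. The pathway windows had a median GC content of 68.0%, against 58.2% over all windows, and GGCGCC holds only G and C. Position by position the ID windows were 26.8% to 33.2% identical. These matches are descriptions of letters and not of binding.

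BAMBI, a membrane protein that resembles a type I receptor but lacks the kinase and so blocks TGF-beta and BMP receptors, was the most abundant BMP-arm gene. It was at 66.8 and 68.2 FPKM in vehicle and at 86.3 and 85.7 in UM-164 libraries, with very little spread within groups. The log2 fold change of 0.35 (SE 0.08, limma unadjusted p = 0.00583, adjusted p = 0.101) missed the threshold, and both treated libraries lay above both vehicle libraries.

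The BMP ligands BMP2 and BMP6 were low. BMP2 was at 0.267 and 0.290 FPKM in vehicle and 0.45 and 0.348 in UM-164 libraries, and BMP6 at 0.327 and 0.442 against 0.639 and 0.451, both under the filter and resting on about 20.6 to 36.5 steps per library. BMP4, a ligand known to drive astrocytic fate in neural precursors, was at 9.44 and 3.14 FPKM in the vehicle libraries and at 6.12 and 7.21 in the UM-164 libraries. The vehicle libraries lay on either side of the treated ones, and the log2 fold change of 0.25 (SE 0.47, limma adjusted p = 0.807) became 0.97 without vehicle replicate 1 and -0.48 without vehicle replicate 2, so no direction can be given for BMP4.

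The BMP receptors showed no call. The type I receptor ACVR1, at 7.30 and 10.2 FPKM in vehicle and 8.37 and 8.07 in UM-164 libraries, exceeded BMPR1A, at 1.35 and 1.68 against 1.37 and 1.6, and the type II receptor BMPR2, at 1.73 and 2.07 against 2.15 and 2.12. Their log2 fold changes were -0.06, -0.02 and 0.14.

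Of the SMADs of this branch, SMAD5 was at 4.58 and 5.23 FPKM in vehicle and 5.45 and 5.44 in UM-164 libraries (log2 fold change 0.14, limma adjusted p = 0.566). SMAD1, at 0.901 and 0.87 against 1.04 and 1.16 FPKM, was just under the filter with a mean of 0.994 over the 4 libraries. SMAD6, an inhibitory SMAD that is itself a BMP target, was also under the filter, at 0.854 and 0.989 FPKM in vehicle and 0.391 and 0.209 in UM-164 libraries. Both treated libraries lay below both vehicle libraries, but the gene was outside the reported test, and depth at this level is unknown.

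In the TGF-beta arm the ligand was nearly all TGFB1. It was at 76.8 and 70.1 FPKM in vehicle and 72.7 and 69.7 in UM-164 libraries, and made up 96.7% to 97.8% of the summed FPKM of TGFB1, TGFB2 and TGFB3 in each library. The groups overlapped, and the log2 fold change of -0.04 had a 95% interval from -0.27 to 0.18. An antisense gene, HNRNPUL1, overlaps 6.64% of its exon bases. TGFB2 was at 1.16 and 1.67 FPKM against 1.26 and 1.05, and shares 26.6% of its exon bases with TGFB2-OT1 on the same strand. TGFB3 was at 0.537 to 0.759 FPKM over the 4 libraries. INHBA, which encodes the subunit of activin A, was at 1.2 and 1.34 in vehicle and 1.69 and 1.42 in UM-164 libraries, above in both, and its log2 fold change of 0.21 did not pass (limma adjusted p = 0.532). INHBE, another activin subunit, was at 0.137 FPKM or less and was listed at 0 in UM-164 replicate 1.

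The latent TGF-beta binding proteins lie in the matrix, where some, but not all, of them anchor the secreted ligand. LTBP3 was the highest of them, at 37.7 and 41.3 FPKM in vehicle and 39.0 and 40.4 in UM-164 libraries, then LTBP4 at 11.3 and 12.7 against 11.6 and 10.98. The log2 fold changes were 0.01 for LTBP3, where rescaling turned the sign, and -0.08 for LTBP4. LTBP1, at 3.09 and 3.07 against 2.85 and 2.58 FPKM, lay below vehicle in both treated libraries, and LTBP2, at 2.36 and 3.01 against 2.27 and 3.0, overlapped. None of the 4 had an unadjusted p under 0.05.

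Among the receptors, TGFBR2, the type II receptor that binds TGF-beta, was the highest, at 8.30 and 10.4 FPKM in vehicle and 8.59 and 8.12 in UM-164 libraries. The type I receptor TGFBR1 was at 2.10 and 2.81 in vehicle and at 3.05 and 1.03 in the UM-164 libraries, which lay on either side of the vehicle ones. Its log2 fold change of -0.33 turned to 0.28 without UM-164 replicate 2. The activin type I receptor ACVR1B was at 4.03 and 4.10 against 5.14 and 4.30 FPKM, and the type II receptor ACVR2A stayed under the filter at 0.533 to 0.666. TGFBR3, the co-receptor betaglycan, was at 0.559 and 0.491 FPKM in vehicle and 0.830 and 0.971 in UM-164 libraries. The groups did not overlap, but it was under the filter and so outside the reported test.

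The extracellular inhibitors FST and FSTL3 had fold changes of opposite sign, neither past the threshold. Follistatin and follistatin-like 3 are related secreted proteins that bind activins and keep them from their receptors. FSTL3 (chr19:676365-683399, plus strand) was at 27.3 and 19.4 FPKM in vehicle and at 11.8 and 9.88 in UM-164 libraries, a fold change of a size like that of ID4 (-1.06 on the log2 scale, SE 0.19, limma adjusted p = 0.0773). All treated libraries lay below all vehicle libraries, but the vehicle libraries themselves lay 0.48 log2 units apart. FST was at 9.66 and 11.3 FPKM in vehicle and 13.2 and 14.3 in UM-164 libraries, both above vehicle (log2 fold change 0.38, SE 0.12, limma unadjusted p = 0.0224, adjusted p = 0.182). Per length, FST was at 0.354 and 0.579 times FSTL3 in vehicle and at 1.12 and 1.45 times in UM-164 libraries, so the order of the pair differed between the groups. That this ratio separates the groups follows from the single genes, as FST lay above and FSTL3 below vehicle. FSTL1, a more distant secreted relative, was at 14.9 and 17.2 against 14.7 and 15.2 FPKM, with a log2 fold change of -0.10.

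SMAD3 had the highest FPKM of SMAD1, SMAD2, SMAD3 and SMAD5. Its values in both UM-164 libraries lay below those in vehicle without passing the threshold. SMAD3 (chr15:67063763-67195195, plus strand) was at 18.9 and 21.97 FPKM in vehicle and at 12.1 and 10.4 in UM-164 libraries (log2 fold change -0.83, SE 0.13, limma adjusted p = 0.0601). The difference of the means was -44.9% of vehicle, and 2.0% of SMAD3 exon bases overlap an antisense gene. SMAD2, which shares its activating receptors, was at 1.07 and 1.23 against 1.10 and 1.14 FPKM, with a log2 fold change of -0.03 and a 95% interval from -0.46 to 0.40. In FPKM, SMAD3 exceeded SMAD2 by 17.6 and 17.9 times in vehicle and by 11.02 and 9.16 times in UM-164 libraries. FPKM divides by length, and GENCODE v29 gives SMAD2 36366 exon bases against 9113 for SMAD3. The size of the ratio thus depends on the lengths used, and their part in it was not tested.

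The nuclear corepressors that hold SMAD targets silent showed no call. SKI was at 9.27 and 9.97 FPKM in vehicle and 10.6 and 10.7 in UM-164 libraries, and TGIF1 at 2.22 and 2.77 against 3.40 and 2.91. Both lay above vehicle in both treated libraries, with log2 fold changes of 0.14 and 0.29 (limma adjusted p = 0.483 and 0.391). SKIL, a relative of SKI that TGF-beta is known to induce, was under the filter at 0.360 and 0.821 FPKM in vehicle and 0.703 and 0.759 in UM-164 libraries.

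The plot of levels puts these genes side by side and shows which were most abundant per length. In vehicle, TGFB1, LTBP3, FSTL3 and SMAD3 headed the TGF-beta arm and BAMBI, ID1 and ID3 the BMP arm.

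**Figure D3:**
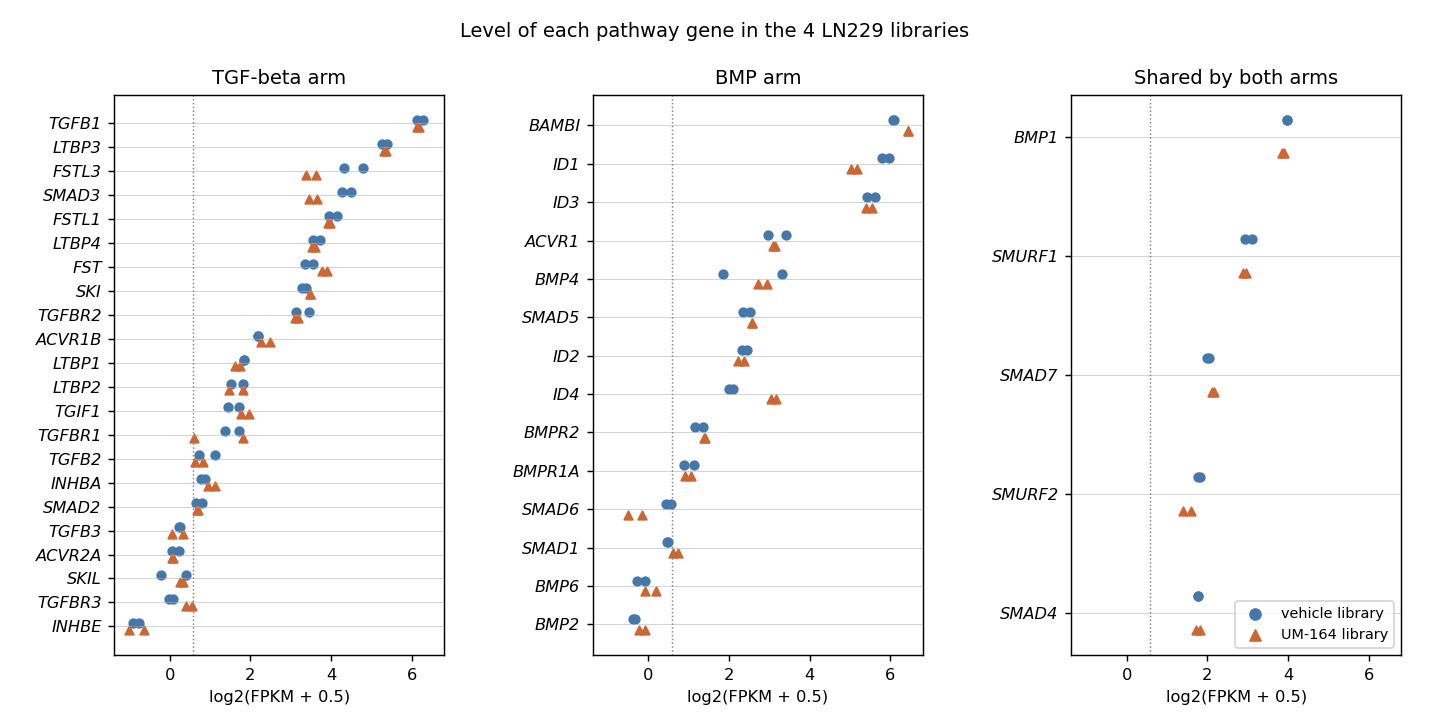
Level of the 41 genes in each library as log2(FPKM + 0.5), ordered by their vehicle mean within the TGF-beta arm, the BMP arm and the shared genes, with vehicle libraries as circles and UM-164 libraries as triangles. The dotted line marks an FPKM of 1. Circles and triangles separate for FSTL3, SMAD3, ID1 and SMAD6 to the left and ID4, TGFBR3, FST and BAMBI to the right, among others. Of the 32 tested genes, 10 separate to the right (31.3%, against 27.7% of all genes tested) and 6 to the left (18.8%, against 25.5%).

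The genes shared by both arms gave no call. SMAD4, the partner of all receptor-regulated SMADs, was at 2.88 and 2.90 FPKM in vehicle and 2.78 and 3.0 in UM-164 libraries, with a log2 fold change of -0.0017 and a 95% interval from -0.33 to 0.33. SMAD7, the inhibitory SMAD that TGF-beta and BMP both induce, was at 3.62 and 3.44 against 3.99 and 3.81 FPKM, at 0.13 with an interval from -0.18 to 0.44. SMURF1 and SMURF2 are ubiquitin ligases that mark SMADs and receptors for destruction. SMURF2 was at 2.92 and 3.03 FPKM in vehicle and 2.52 and 2.11 in UM-164 libraries (log2 fold change -0.31, limma adjusted p = 0.319), and SMURF1 at 7.07 and 8.07 against 7.22 and 6.93. BMP1, which in spite of its name is a metalloprotease that trims procollagens and frees latent TGF-beta, was at 15.3 and 15.3 against 14.5 and 13.8 FPKM (log2 fold change -0.11). Of these, SMURF1 shares 11.7% of its exon bases with an antisense gene and SMAD4 shares 7.37% with a gene on the same strand, and the strandedness of the libraries is not given.

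**Figure D4:**
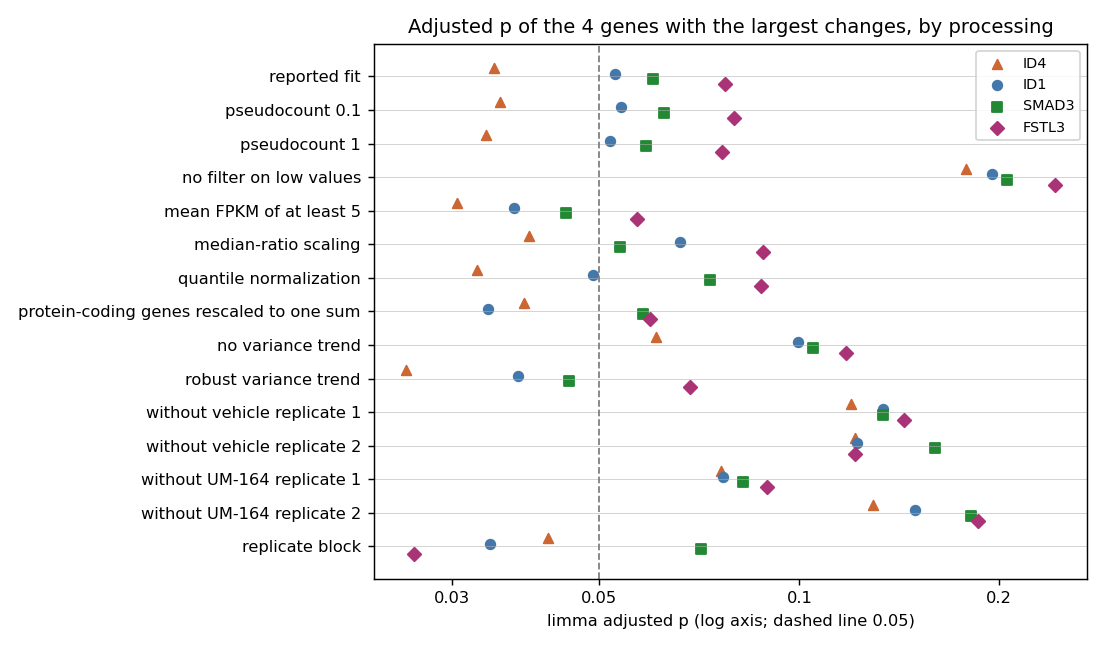
Adjusted p from limma (log axis, dashed line at 0.05) of ID4, ID1, SMAD3 and FSTL3 under the reported fit and 14 alternatives. ID4 lies left of the line in the reported fit and 8 alternatives, ID1 in 5, SMAD3 in 2 and FSTL3 in 1, and all 4 lie right of it whenever a library is left out.

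The plot of adjusted p by processing shows where these 4 genes lie relative to the threshold. Their fold changes moved less than their p. Over all alternatives ID4 ran from 0.97 to 1.13, ID1 from -0.88 to -0.70, SMAD3 from -0.94 to -0.73 and FSTL3 from -1.30 to -0.82.

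Further genes of the pathway were taken from lists made with earlier results of these data known. Of 73 other components, 34 were tested, 1 fell (2.94%, against 0.86% of all genes tested) and 0 rose, at a median log2 fold change of -0.02. An unadjusted p under 0.05 from limma was seen for 10 (29.4%, against 20.1%), 6 with higher and 4 with lower values. At least 1 of the 6 had a vehicle mean of 0.984 FPKM and passed the filter only through its UM-164 values. The share of 29.4% therefore cannot be read against the background. The gene that fell was PMEPA1, a membrane protein that TGF-beta induces and that in turn binds SMAD2 and SMAD3. It was at 169 and 186 FPKM in vehicle and 108 and 105 in UM-164 libraries (log2 fold change -0.74, limma adjusted p = 0.0367). PMEPA1 was called in 7 of 14 alternatives, and not when any library was left out, where its log2 fold change ran from -0.81 to -0.67. Nor was it called with quantile normalization, no variance trend or no filter (limma adjusted p = 0.0528, 0.0916 and 0.188). CRIM1, a BMP-binding membrane protein, at 9.60 and 11.4 against 5.37 and 5.05 FPKM, missed narrowly (log2 fold change -0.94, limma adjusted p = 0.05001). With quantile normalization CRIM1 was called in place of PMEPA1 (limma adjusted p = 0.0470). The BMP co-receptor RGMB was at 6.01 and 6.27 against 3.93 and 3.98 FPKM, and the BMP antagonist NBL1 at 18.5 and 17.2 against 25.1 and 26.1, with limma adjusted p = 0.0848 and 0.0772.

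Of 21 genes known as TGF-beta targets, 18 were tested, 4 fell (22.2%, against 0.86% of all genes tested) and 0 rose, and 13 had an unadjusted p under 0.05 from limma (72.2%, against 20.1%), 11 of them with lower values, at a median log2 fold change of -0.48 against 0.01 over all genes. CCN2, a matricellular protein, was at 72.8 and 74.1 FPKM in vehicle and 15.2 and 13.4 in UM-164 libraries (log2 fold change -2.32, limma adjusted p = 0.00490). THBS1, which also frees latent TGF-beta, and the actin-binding TPM1 fell as well, at log2 fold changes of -2.18 and -1.55 (limma adjusted p = 0.0101 and 0.0146). CCN2, THBS1 and TPM1 are targets of YAP/TAZ or serum response factor too, and the list was made with those results known, so the count does not single out TGF-beta signaling. None of the 3 was called when vehicle replicate 1 or 2 was left out (limma adjusted p = 0.0925 to 0.111), and all 3 were called without either UM-164 library.

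Of 9 genes known as BMP targets beside the ID genes, 5 were tested and 0 were called in either direction (3 at an unadjusted p under 0.05 from limma, 60% against 20.1% of all genes tested). The Notch and BMP target genes HEY1 and HEY2 had log2 fold changes of 0.65 and 0.64, the homeobox genes MSX1 and DLX5 of 0.31 and -0.64. HEY1 was at 0.627 and 0.730 FPKM in vehicle and 1.63 and 1.12 in UM-164 libraries, and HEY2 at 0.678 and 0.935 against 1.62 and 1.45. Both genes were under an FPKM of 1 in vehicle and passed the filter only through their UM-164 values. The share of 60% therefore cannot be read against the background. The deposited table assigns 54 genes beside the listed ones to the KEGG TGF-beta signaling pathway. This list repeats genes of the lists above, THBS1, NBL1 and RGMB among them, so its counts are not separate from theirs. Of the 54, 28 were tested, 1 fell (3.57%, against 0.86% of all genes tested) and 0 rose. The gene that fell was THBS1 again. An unadjusted p under 0.05 from limma was seen for 9 (32.1%, against 20.1%), and the median log2 fold change was -0.09. MYC, which TGF-beta is known to repress in epithelial cells, was at 3.46 and 3.48 against 1.58 and 1.61 FPKM (log2 fold change -0.92, limma adjusted p = 0.0539).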

How the data were processed

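RNA of vehicle-treated and UM-164-treated LN229 cells was measured in 2 libraries each. Per the submitters' processing notes, the tools were cutadapt 1.9 and FastQC and the build was GRCh38. The series text names HISAT2, and the authors' own comparison used DESeq2, per the paper's methods. The authors deposited 1 table with FPKM per library, which holds no read counts, beside their own fold changes, p-values and q-values, which were not used. The sources used here do not name the program that computed FPKM.

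The test was limma 3.58.1 in R 4.3.3 on log2(FPKM + 0.5) of the 11516 genes whose mean FPKM was 1 or more (variance trend, Benjamini-Hochberg adjustment over all genes tested, threshold 0.05). Depth per library is unknown, so no counting interval is given. Tables were made with Python 3.11.15, numpy 2.4.6 and pandas 2.3.3. Gene positions and exon overlaps are those of GENCODE v29 on GRCh38, and start regions are from RefSeq. The genes named are all those listed, with up to 4 of each further list with the smallest p. The values of 1 gene under this rule are not reported here. All of these, the arms and the lists were chosen with earlier results of these data known. Alternatives were other pseudocounts (0.1 and 1), no filter, a mean FPKM of at least 5, 3 rescalings, 2 variance models, each library left out and the replicate number as a block.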

Additional observations from a re-analysis of the deposited data

How the results depend on the processing

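Over 45 named genes and 14 alternatives, 549 values kept direction and call, 16 gained and 27 lost a call in the same direction, and 19 turned, none of them called. LTBP3 went to -0.019 with median-ratio scaling and -0.014 with protein-coding genes rescaled. With each library left out, the log2 fold change ran from -0.11 to 0.022 for TGFB1, -0.94 to 0.28 for TGFBR1, -0.30 to 0.0083 for TGFBR2, -0.19 to 0.0039 for FSTL1, -0.19 to 0.14 for LTBP2, -0.057 to 0.073 for LTBP3, -0.10 to 0.039 for SMAD2, -0.48 to 0.97 for BMP4, -0.14 to 0.094 for BMPR1A, -0.29 to 0.16 for ACVR1, -0.15 to 0.060 for ID3 and -0.050 to 0.047 for SMAD4.

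Pathway genes called numbered 1 in the reported fit, 3 at a mean FPKM of at least 5, 3 with a robust variance trend, 2 with quantile normalization, 2 with protein-coding genes rescaled, and 0 with no filter, with no trend or with any library left out (0 to 0). The TGF-beta arm had 1 call at a mean FPKM of at least 5 and with the robust trend (SMAD3). The BMP arm had 2 at a mean FPKM of at least 5, with quantile normalization, with protein-coding genes rescaled and with the robust trend (ID1 and ID4), and 0 with no filter, with no trend or with any library left out. All genes called numbered 151, against 4 with no filter, 50 with no trend, 263 with the robust trend and 4 to 115 with a library left out. The further lists were tried under the same alternatives, chosen after seeing the data. Other components gave 2 with a pseudocount of 0.1, at a mean FPKM of at least 5, with median-ratio scaling, with protein-coding genes rescaled and with the robust trend, and 0 with no filter, no trend or a library left out. TGF-beta targets gave 0 with no filter and 0 to 3 with a library left out, and KEGG genes gave 0 with no filter, 2 with quantile normalization or the robust trend, and 0 to 1 with a library left out. The cause of these shifts was not tested, other than that no filter adds 16178 genes to the test and that leaving out a library leaves a group with 1.

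With the replicate number as a block, 3 pathway genes were called (ID4, ID1 and FSTL3), 2 in the BMP arm and 1 in the TGF-beta arm. The labels do not say that a number marks a shared culture or day. The differences between replicates 1 and 2 of the groups had a correlation of -0.06 over genes. Such a correlation cannot show whether a shared culture or day affected some genes, so pairing remains unknown. FPKM gives no depth, so counting error behind low genes such as SMAD6, BMP2, BMP6 and INHBE could not be set.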
